A study of Drosophila melanogaster with 8 samples.

Results

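The genes described here encode the Beat and Side families of cell surface proteins and the classical axon guidance cues and receptors of Drosophila melanogaster. They were chosen by name, with earlier results of these data known, as 41 of the 14175 genes in the deposited tables. All 41 symbols matched an identifier there. They comprise 14 Beat genes, 8 Side genes, 9 guidance cues, 9 guidance receptors and comm, a regulator of a receptor. The libraries came from ventral nerve cords, the larval counterpart of a spinal cord, of female Drosophila at the wandering stage of the last larval instar, in a w1118 background. There were 4 from wit mutants and 4 from controls. The wit mutants carried witA12 over witB11, each on a copy of chromosome 3 marked with st1. In controls the witA12, st1 chromosome was paired with a wild-type copy, so both genotypes have a mutant wit allele and a copy of st1. Vials held 80 larvae at 25 °C, and 25 cords were pooled per library. The genotypes therefore differ in a whole copy of chromosome 3.

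Growing axons choose their path by reading cues on cells and in the matrix around them. Beat proteins are immunoglobulin family molecules found on or released from neurons, and Side proteins are transmembrane immunoglobulin family molecules. Beat-Ia on motor axons recognises Side, which marks their route and their muscle targets, and loss of either leaves motor axons bundled past their branch points. Slit, Netrins, Semaphorins, Wnt5 and Ephrin are cues read by Robo receptors, Frazzled and Unc-5, Plexins, Derailed and Eph. Wishful thinking, encoded by wit, is the type II receptor through which motor neurons and some neurosecretory neurons read BMP ligands from their targets, and most of these guidance genes are best known from the embryo, before the larval stage sampled here.

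Values are CPM, the estimated counts of a gene relative to the total of its library, with totals scaled by the trimmed mean of M values (TMM). Differences are log2 fold changes of wit mutants over controls from edgeR's quasi-likelihood test, with Benjamini-Hochberg adjusted p over all 9176 genes tested and calls at an adjusted p under 0.05. Libraries held 20923717 to 32740480 estimated counts. The 41 genes had between 639 and 28793 counts in a library, so all of them passed the filter on low counts in both genotypes. The wit transcript was at 82.1, 85.2, 89.1 and 91.0 CPM in wit mutant libraries 1 to 4 and at 89.8, 86.6, 91.0 and 94.9 CPM in control libraries 1 to 4, and it did not pass the test (log2 fold change -0.06, adjusted p = 0.371). The labels do not give the lesions of the alleles, so transcript abundance does not check the genotype. Wit mutant library 1 had the lowest total and lay apart from the other mutants on the second principal component, which held 13.3% of the variance. It had the lowest of the 4 mutant values for 23 of the 41 genes, and counts of members that change without it are given both ways.

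Of the 41 genes, 14 were lower and 0 were higher in wit mutants. Over all genes tested, 8.66% were called lower and 6.12% higher, or 14.8% in either direction. The 14 lower genes were 7 Beat genes, 1 Side gene, 4 cues and 2 receptors. At an unadjusted edgeR p under 0.05, 21 were lower and 1 was higher, and DESeq2 and limma-voom called 0 higher. The shares over all genes given here are for adjusted p, and none was taken at the unadjusted threshold. The changes were small: the log2 fold changes of the 14 genes ran from -0.62 for beat-Ia to -0.13 for beat-IIIb. All 14 had mutant and control libraries that did not overlap, as did 753 of the 795 genes called lower over all genes tested. Call and separation rest on the same libraries, so the separation is not further support for the 14. In all, 17 of the 41 genes did not overlap, against 20.5% of all genes tested in either direction and 11.7% with wit mutants lower. The 3 that did not overlap without passing the test were Ephrin, robo3 and Eph, also with wit mutants lower. The log2 fold change was below 0 for 36 of the 41 genes (87.8%) and for 48.1% of all genes tested, with medians of -0.09 and 0.01. As the 41 genes were chosen with earlier results of these data known, setting them beside all genes is not a test of an excess. Without wit mutant library 1, 14 genes were lower and 3 were higher, where 12.1% of all genes tested were lower and 11.4% higher.

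**Figure D1:**
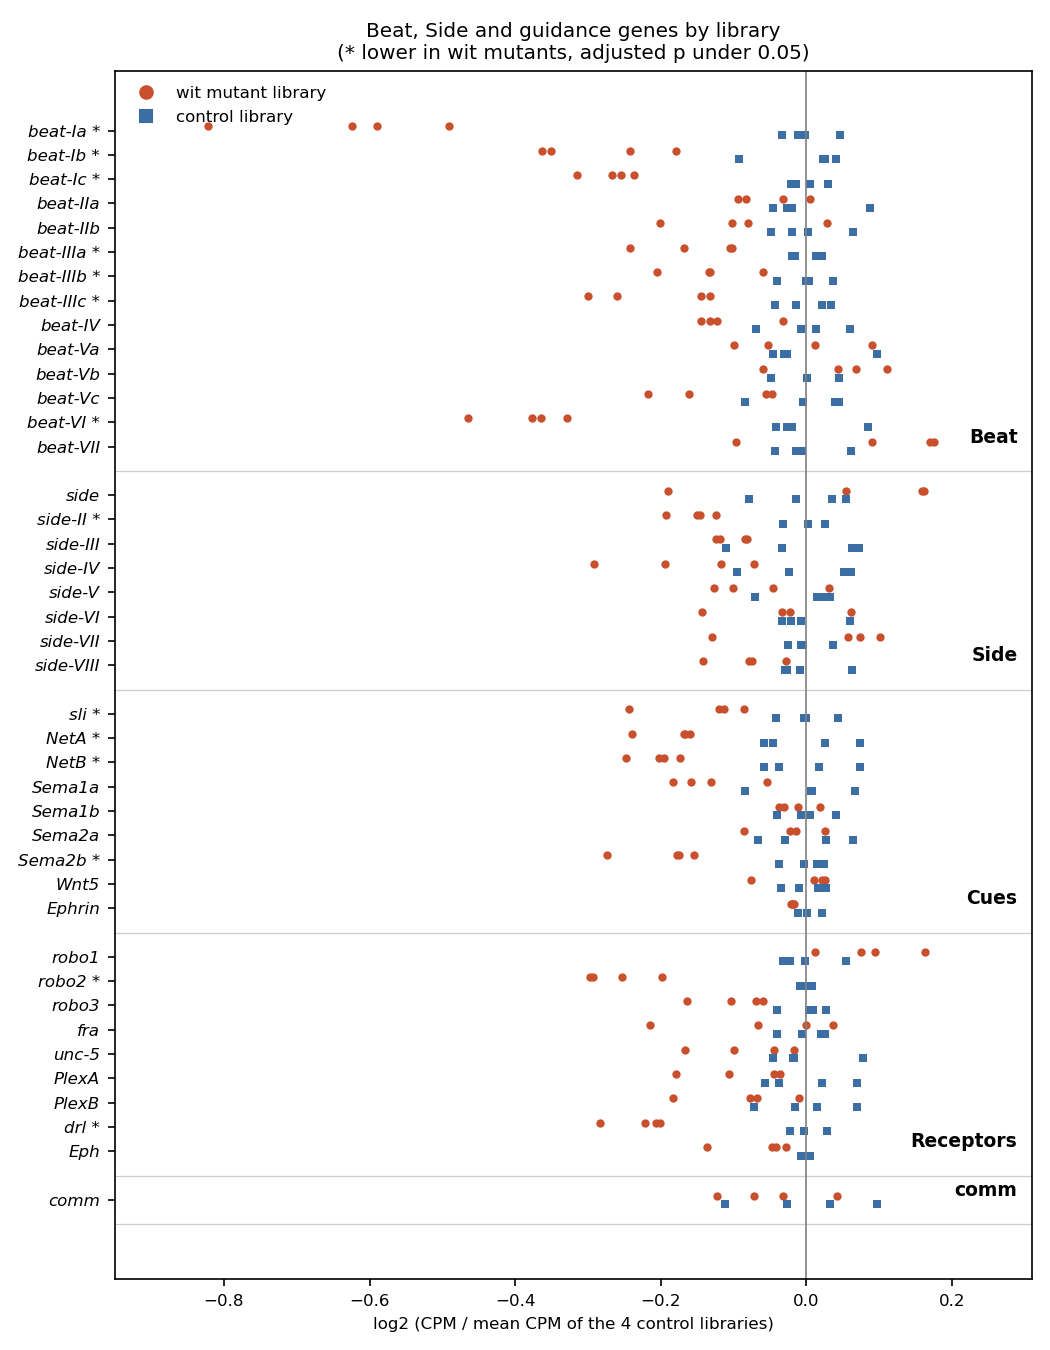
Each row is a gene, and each point is the log2 ratio of a library's CPM to the mean of the 4 control libraries (circles, wit mutant; squares, control; asterisks, the 14 genes called lower). The circles of beat-Ia, beat-VI, beat-Ic and robo2 lie left of all their squares, while those of side, side-VII and beat-VII fall on both sides.

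The Beat family held the 2 genes with the lowest log2 fold changes. Beat-Ia (FBgn0013433, chromosome 2L, 16049965 to 16081684, BDGP6), which encodes a secreted anti-adhesive protein of motor axons, was at 73.1, 91.9, 83.8 and 85.9 CPM in wit mutant libraries 1 to 4 and at 133, 128, 129 and 126 CPM in control libraries 1 to 4. Every mutant library lay well below the lowest control library, with mutant library 1 lowest. This is a 1.54-fold lower level (log2 fold change -0.62, SE 0.06, adjusted p = 3.23e-05), and the call held in all 14 alternatives. Beat-VI (FBgn0039584, chromosome 3R, 28418208 to 28474814), whose product binds Side-II, was at 131, 144, 139.5 and 141 CPM in wit mutant libraries and at 192, 178, 176 and 179 CPM in control libraries. The groups were again separate, and control library 1 stood above the other controls. Its level was 1.30-fold lower (log2 fold change -0.38, SE 0.04, adjusted p = 8.23e-05).

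The neighbours of beat-Ia on chromosome 2L also fell, by less. Beat-Ib (15905134 to 15962435) was at 36.4, 33.5, 38.0 and 33.8 CPM in wit mutants and at 40.4, 43.7, 43.8 and 44.3 CPM in controls (log2 fold change -0.28, SE 0.05, adjusted p = 0.00353). Beat-Ic (16000291 to 16041703) was at 54.4, 51.6, 53.7 and 53.3 CPM in wit mutants and at 63.5, 65.5, 63.2 and 64.4 CPM in controls (log2 fold change -0.27, SE 0.03, adjusted p = 0.000247). Beat-Ic varied little within a genotype, at 53.3 ± 1.22 CPM in wit mutants and 64.1 ± 0.993 CPM in controls (SD, n = 4 each). Beat-Ia, beat-Ib and beat-Ic are paralogs within 177 kb that also contains 11 other protein-coding genes.

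The other Beat cluster of chromosome 2L, beat-IIIa, beat-IIIb and beat-IIIc, spans 288 kb, and its 3 genes were called lower as well. Beat-IIIc was at 60.0, 60.6, 55.4 and 53.9 CPM in wit mutants and at 67.4, 68.0, 65.7 and 64.4 CPM in controls (log2 fold change -0.21, SE 0.04, adjusted p = 0.00864). Beat-IIIa was at 32.2, 35.4, 33.9 and 35.5 CPM in wit mutants and at 37.6, 37.7, 38.4 and 38.7 CPM in controls (log2 fold change -0.15, SE 0.04, adjusted p = 0.0292). Beat-IIIb was at 37.9, 36.1, 34.3 and 36.1 CPM in wit mutants and at 39.6, 40.6, 39.5 and 38.5 CPM in controls (log2 fold change -0.13, SE 0.04, adjusted p = 0.0474). None of the 3 overlapped, although the groups of beat-IIIb were only 0.527 CPM apart, those of beat-IIIa 2.10 CPM and those of beat-IIIc 3.86 CPM. The call of beat-IIIa was lost without mutant library 3 or control library 2, 3 or 4 (adjusted p 0.0618 to 0.0776). That of beat-IIIb was lost without mutant library 2, 3 or 4 or any control library (adjusted p 0.0644 to 0.133), and with DESeq2 and without the count filter. The annotated gene CG34106 shares all 4457 exon bases of beat-IIIa's longest transcript on the same strand, so the estimates of the 2 genes are uncertain. CG34106 itself averaged 30.3 CPM in wit mutants and 33.4 CPM in controls (log2 fold change -0.14, adjusted p = 0.0371).

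The 7 Beat genes that did not pass the test were all on chromosome 3R. The beat-V cluster had log2 fold changes of -0.01 for beat-Va, 0.04 for beat-Vb and -0.12 for beat-Vc, with SEs of 0.04 to 0.05. Beat-IIa and beat-IIb, partners of Side-IV, had -0.05 and -0.08. Beat-IV had -0.11 (adjusted p = 0.0974), and limma-voom called it lower (adjusted p = 0.0470). Beat-VII was at 149, 179, 169 and 179 CPM in wit mutants and at 166, 154, 158 and 157 CPM in controls. Its mutant library 1 was below all controls and the other 3 were above them, and it had 0.09 with all libraries (adjusted p = 0.311) and 0.15 without mutant library 1 (adjusted p = 0.0130). Summed over the 14 Beat genes, the level was 885 to 944 CPM in wit mutant libraries and 1022 to 1058 CPM in control libraries. This sum weights long and abundant transcripts most.

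**Figure D2:**
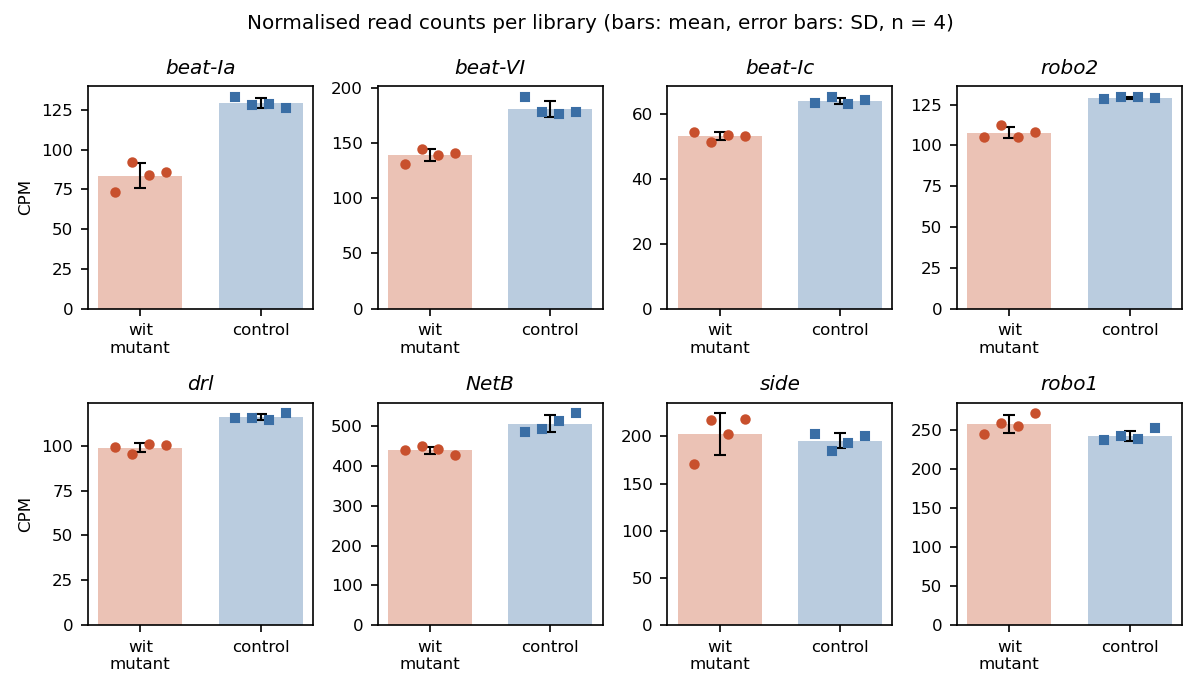
CPM of 8 genes in the 4 wit mutant libraries (circles, left) and the 4 control libraries (squares, right), with bars at the mean and error bars of 1 SD. The groups are separate for the first 6 genes, from beat-Ia to NetB, and overlap for side and robo1.

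In the Side family 1 of 8 genes was called lower. Side-II (FBgn0259213, chromosome 2L, 14907489 to 14972300), the partner of Beat-VI, was at 77.9, 80.2, 81.7 and 80.5 CPM in wit mutants and at 87.1, 89.2, 89.2 and 90.6 CPM in controls (log2 fold change -0.15, SE 0.03, adjusted p = 0.00803). The founding member side (FBgn0016061, chromosome 3R, 27375088 to 27437482), which encodes the attractant recognised by Beat-Ia, was at 171, 218, 203 and 218 CPM in wit mutants and at 203, 185, 193 and 200.0 CPM in controls. Here mutant library 1 was below all controls and mutant libraries 2 and 4 were clearly above them, and the test was not passed (log2 fold change 0.05, SE 0.07, adjusted p = 0.657). Leaving out mutant library 1 gave side 0.13 on the log2 scale (adjusted p = 0.0445). Side-IV was at 68.0, 58.4, 65.9 and 62.5 CPM in wit mutants and at 66.9, 74.0, 74.6 and 70.3 CPM in controls, and just missed the test (log2 fold change -0.17, SE 0.05, adjusted p = 0.0538). It passed without mutant library 1 or control library 1 and with DESeq2, limma-voom or a minimum count of 50 (adjusted p 0.0121 to 0.0499). Antisense RNA genes share exon bases with side-IV, and the labels do not say whether counting used the strand. The other 5 Side genes had log2 fold changes from -0.10 for side-III to 0.03 for side-VII, and side-III passed without control library 1 (adjusted p = 0.0408). Summed Side levels overlapped, at 971 to 1066 CPM in wit mutants and 1045 to 1093 CPM in controls.

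Beat genes were thus called lower in 7 of 14 cases with a median log2 fold change of -0.13, and Side genes in 1 of 8 cases with a median of -0.07. The difference between these counts was not tested. Within the 4 wit mutant libraries, the median of the 14 Beat genes relative to the control means ran from -0.17 to -0.11 (log2). For the 8 Side genes it ran from -0.13 to -0.04.

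Among secreted and membrane-bound cues, 4 of 9 were called lower and all 9 had log2 fold changes below 0, with a median of -0.13. NetB (FBgn0015774, chromosome X, 14686038 to 14749376), a Netrin that attracts commissural axons, was at 441, 449.7, 443 and 427 CPM in wit mutants and at 487, 494, 513 and 534 CPM in controls (log2 fold change -0.20, SE 0.04, adjusted p = 0.00478). NetA (FBgn0015773, chromosome X, 14604012 to 14653928), its neighbour, was at 34.6, 34.4, 32.7 and 34.4 CPM in wit mutants and at 40.7, 37.1, 39.3 and 37.4 CPM in controls (log2 fold change -0.18, SE 0.04, adjusted p = 0.0139). Both Netrin genes were separate between genotypes, and NetB was the more abundant per length. Sema2b (FBgn0264273, chromosome 2R, 16386524 to 16431758), a secreted ligand of Plexin B, was at 190.3, 207, 204 and 203 CPM in wit mutants and at 224, 232, 229.6 and 234 CPM in controls (log2 fold change -0.19, SE 0.04, adjusted p = 0.00391). Its close paralog Sema2a did not pass, at 275, 289, 288 and 298 CPM in wit mutants and 298, 306, 287 and 279 CPM in controls (log2 fold change -0.02, SE 0.04, adjusted p = 0.731).

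The midline repellent gene sli (FBgn0264089, chromosome 2R, 15869495 to 15922118) had the highest level per length of the 41 genes in both genotypes. It was at 739, 809, 806 and 825 CPM in wit mutants and at 851, 873, 875 and 902 CPM in controls (log2 fold change -0.14, SE 0.04, adjusted p = 0.0494), with mutant library 1 lowest. The call was lost without mutant library 1, 2 or 3 or any control library (adjusted p 0.0531 to 0.119), and without the count filter. Midline glia express sli, and of the midline markers wrapper fell (log2 fold change -0.38, SE 0.04, adjusted p = 3.62e-05) while sim did not pass the test (0.13, adjusted p = 0.28). Their part in the level of sli was not tested. Sema1a, a transmembrane ligand of Plexin A, was at 490.4, 536, 499 and 508 CPM in wit mutants and at 525, 559, 559 and 583 CPM in controls, and missed the test (log2 fold change -0.13, SE 0.04, adjusted p = 0.0631). It passed without control library 1 and with DESeq2 or limma-voom (adjusted p 0.0256 to 0.0343). Sema1b, Wnt5 and Ephrin had -0.01, -0.0044 and -0.02. Ephrin spanned 214 to 215 CPM over wit mutant libraries and 216 to 221 CPM over control libraries, so its groups did not overlap although the difference was about 1%.

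Of the 9 receptors, 2 were called lower, and of the 3 Robo genes only robo2 passed the test with all libraries. Robo2 (FBgn0002543, chromosome 2L, 1380086 to 1420453), a Slit receptor that sets the lateral position of axon tracts, was at 105, 113, 105 and 108 CPM in wit mutants and at 128, 129.9, 129.7 and 129 CPM in controls (log2 fold change -0.26, SE 0.03, adjusted p = 0.000291). Its control libraries differed by less than 2 CPM and lay far above every mutant library. The annotated long non-coding RNA CR44898 shares 1241 exon bases with robo2 on the same strand, and the antisense RNA CR44897 shares 1422 on the other. Neither identifier is in the deposited tables, and as with side-IV the use of strand in counting is not stated. The part of these RNAs in the counts of robo2 was not tested. Robo3 was at 326, 349, 340.5 and 351 CPM in wit mutants and at 368, 356, 367 and 373 CPM in controls, which did not overlap but missed the test (log2 fold change -0.10, SE 0.04, adjusted p = 0.0854), and DESeq2 called it lower (adjusted p = 0.0380). Robo1, the receptor that keeps axons from recrossing the midline, was at 244, 259, 256 and 271 CPM in wit mutants and at 237, 242, 239 and 252 CPM in controls. Its mutant libraries were the higher ones on average but overlapped the controls (log2 fold change 0.09, SE 0.04, adjusted p = 0.157), and without mutant library 1 it had 0.11 (adjusted p = 0.0432).

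The other receptor gene that fell was drl (FBgn0015380, chromosome 2L, 19190342 to 19208621), which encodes the Ryk family Wnt5 receptor Derailed, found on axons of the anterior commissure. It was at 99.4, 95.2, 101 and 100.5 CPM in wit mutants and at 116, 116, 114 and 118 CPM in controls (log2 fold change -0.23, SE 0.03, adjusted p = 0.000695). The groups were 13.3 CPM apart, and the call held in all 14 alternatives, as did that of robo2. Its ligand gene Wnt5 was at 104, 104, 96.8 and 103 CPM in wit mutants and at 101, 99.6, 104 and 103 CPM in controls (log2 fold change -0.0044, SE 0.03, adjusted p = 0.95). The Netrin receptor genes fra and unc-5 had log2 fold changes of -0.06 and -0.08, and the Plexin genes PlexA and PlexB had -0.09 and -0.08. Eph had -0.06, with 316 to 340.5 CPM over wit mutant libraries and 345 to 348 CPM over control libraries. Comm, whose product removes Robo1 from the axon surface, was at 32.2, 33.4, 36.1 and 34.3 CPM in wit mutants and at 32.5, 37.5, 34.4 and 35.9 CPM in controls (log2 fold change -0.04, SE 0.05, adjusted p = 0.632). Neither Wnt5, fra, unc-5, PlexA, PlexB, Eph nor comm passed the test in any of the 14 alternatives.

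Known binding partners were compared as log2 ratios of CPM + 0.5 within each library, which do not depend on how libraries are scaled. There were 20 ratios, several of which share a gene, and each was tested with a two-sided exact permutation test whose smallest p is 0.0286. For 6 ratios the groups did not overlap, at that smallest p (0.0952 when adjusted over the 20 ratios), so no ratio passed after adjustment. With 4 libraries per genotype, a ratio could pass only if many of the 20 reached that smallest p, however far apart its own groups lay. The ratio of side to beat-Ia averaged 1.27 ± 0.05 in wit mutants and 0.59 ± 0.06 in controls (SD, n = 4 each), a difference of 0.68. That of side-II to beat-VI averaged -0.79 ± 0.04 in wit mutants and -1.02 ± 0.08 in controls, a difference of 0.23. Both ratios were higher in wit mutants. In the first beat-Ia fell while side did not pass the test, and in the second both partners fell.

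The ratio of sli to robo1 was lower in wit mutants, at 1.62 ± 0.03 against 1.85 ± 0.01 in controls. The ratio of sli to robo2 was higher, at 2.87 ± 0.06 in wit mutants and 2.76 ± 0.03 in controls. That of sli to robo3 overlapped, with a difference of -0.04. Wnt5 to drl averaged 0.04 ± 0.07 in wit mutants and -0.18 ± 0.04 in controls, and Sema2b to PlexB averaged -0.85 ± 0.04 in wit mutants and -0.74 ± 0.04 in controls. The 4 Netrin ratios, the 2 of side-IV, the 3 of side-VI, the 3 other Semaphorin ratios and that of Ephrin to Eph overlapped between genotypes. Without mutant library 1, 10 ratios did not overlap.

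**Figure D3:**
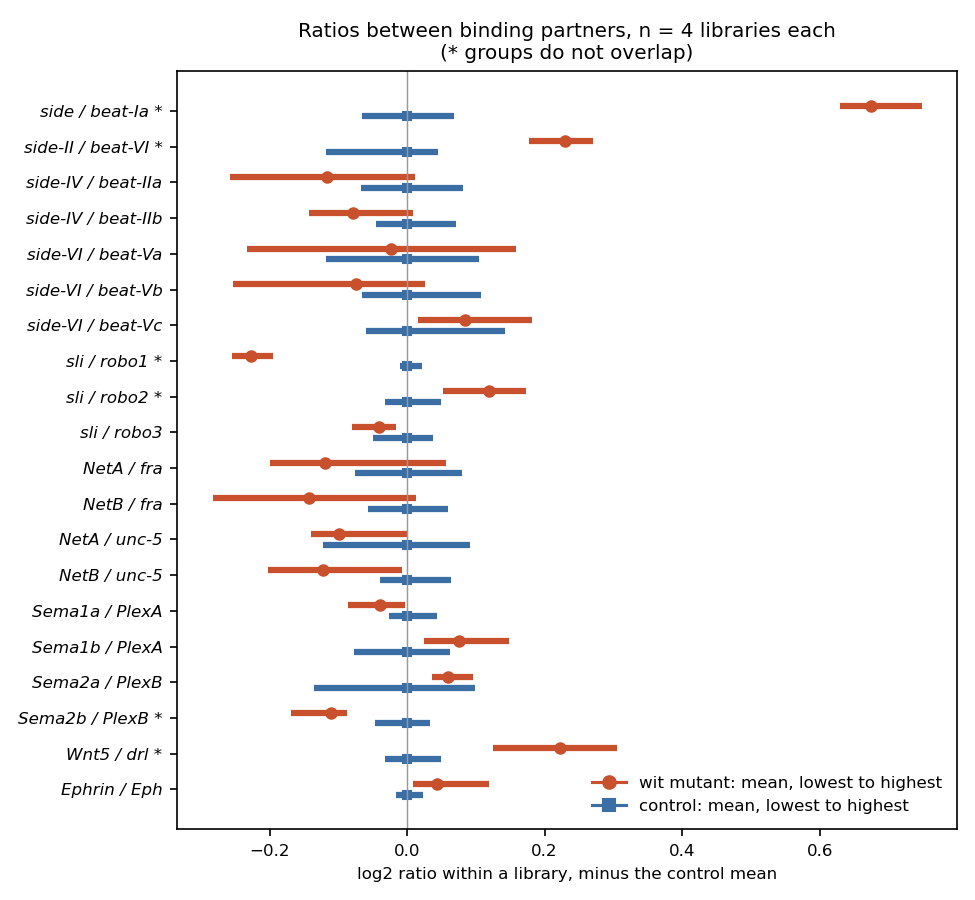
Each row is a log2 ratio between the genes of 2 binding partners, shifted so that the control mean is 0. Bars run from the lowest to the highest of 4 libraries and symbols mark the mean (circles, wit mutant; squares, control). The 6 ratios with an asterisk do not overlap, and side to beat-Ia lies farthest from its controls, 0.68 higher.

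Levels of different genes were compared as CPM per kb of the longest annotated transcript, without knowledge of which isoforms were present. In this unit sli was at 83.8 ± 4.00 in wit mutants and 92.3 ± 2.22 in controls, and Sema2a followed at 80.3 ± 2.58 in wit mutants and 81.7 ± 3.28 in controls. In wit mutants Sema2a and sli differed by less than the SD of sli. Beat-VI had the highest level of the Beat family in controls, at 39.3 ± 1.55 in wit mutants and 51.2 ± 2.10 in controls. Beat-Ia came next at 29.2 ± 2.73 in wit mutants and 45.0 ± 1.05 in controls. It thus ranked 16 of 41 in wit mutants and 12 of 41 in controls. Side-VII was the highest Side gene, at 48.2 ± 3.37 in wit mutants and 47.2 ± 0.863 in controls. Beat-IIIa was estimated lowest of the 41 genes in both genotypes, at 7.69 ± 0.347 in wit mutants and 8.55 ± 0.121 in controls. CG34106 shares all 4457 bases of the transcript used for this length, so the level and rank of beat-IIIa are uncertain.

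**Figure D4:**
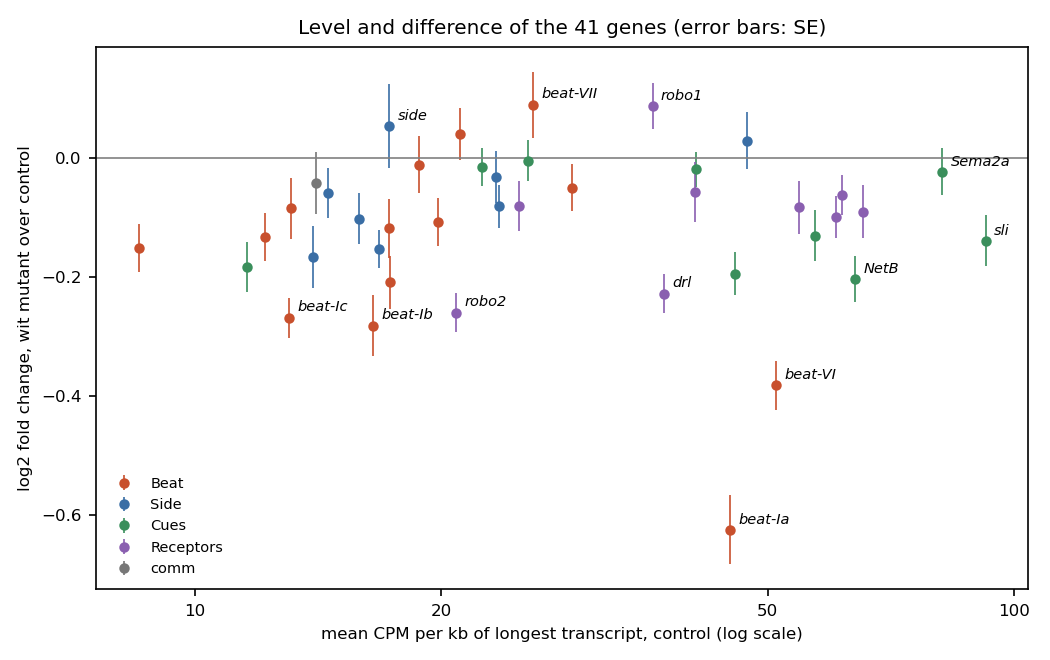
Level in controls, as mean CPM per kb of the longest transcript on a log axis, against the log2 fold change of wit mutants over controls with its SE, coloured by family. The 2 lowest points, beat-Ia and beat-VI, are the Beat genes with the highest control levels, while Sema2a and sli, at higher levels, lie at -0.02 and -0.14.

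The lower genes lay mostly outside the chromosome in which the genotypes differ, as did most of the genes described here. The wit alleles and the rest of that chromosome differ together, so their parts cannot be told apart. Of the 27 genes on other chromosomes 13 were called lower, and of the 14 on chromosome 3 only beat-VI was. Over all genes tested, 8.70% of those on other chromosomes and 8.51% of those on chromosome 3 were called lower. Chromosome 2L held 9 of the lower genes, out of 11 members there, against 10.1% of all its genes. As 6 of these 9 are paralogs in 2 clusters, they are not independent observations.

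Synaptic genes were also lower in wit mutants, and in whole nerve cords fewer cells of a type and less RNA per cell cannot be told apart. Of 4 neuron markers, the synaptic genes nSyb, Syt1 and brp fell (log2 fold changes -0.22, -0.19 and -0.18), and elav, which encodes a neuronal RNA-binding protein, had -0.11 (adjusted p = 0.0918). Syt1 and brp lost their calls without mutant library 2 or 4 or control library 2, 3 or 4 (adjusted p 0.0655 to 0.102). The 4 markers summed to 3375 to 3709 CPM in wit mutant libraries and 3903 to 4065 CPM in control libraries. Of 7 motor neuron markers VGlut (-0.67) and zfh1 (-0.22) fell, and the list summed to 893 to 915 CPM in wit mutants and 1198 to 1225 CPM in controls. VGlut was the most abundant of the 7, at 429 ± 16.9 CPM in wit mutants and 684 ± 15.8 CPM in controls (SD, n = 4 each). Exex, eve, vvl, Lim3 and tup did not pass, at -0.18, -0.13, -0.10, 0.06 and 0.0013. Of 9 glial markers wrapper (-0.38), Nrx-IV (-0.16), Eaat1 (-0.21), Gs2 (-0.995) and Gat (-0.65) fell, while repo (-0.07), moody, alrm and sim did not pass. The 9 summed to 1266 to 1664 CPM in wit mutants and 1947 to 1994 CPM in controls. Elav and repo, which define neurons and glia, were above 100 CPM in every library.

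The 14 lower genes were also set against these markers within each library, an alternative chosen after seeing the data. These ratios were computed only for the genes described here, so no share over all genes stands beside the counts. All 4 neuron markers had log2 fold changes below 0, so a gene that held its level rises relative to them. Relative to elav, 6 of the 14 stayed below all controls without overlap: beat-Ia (-0.52), beat-VI (-0.28), beat-Ic (-0.16), robo2 (-0.15), beat-IIIc (-0.10) and NetB (-0.10). Relative to the 4 summed neuron markers, 3 did, namely beat-Ia (-0.46), beat-VI (-0.21) and beat-Ib (-0.11). The other 11 overlapped, and beat-IIIa, beat-IIIb, side-II and sli lay at 0.017, 0.039, 0.018 and 0.031. Of the 27 genes not called, 4 were higher without overlap in wit mutants relative to elav, namely robo1 (0.19), beat-Vb (0.15), Wnt5 (0.10) and Ephrin (0.09). Relative to the summed markers there were 6, these 4 (0.26, 0.21, 0.17 and 0.15) with beat-Va (0.16) and Sema1b (0.16). Relative to VGlut, beat-Ia overlapped between genotypes, at -2.36 ± 0.18 in wit mutants and -2.40 ± 0.06 in controls (log2 ratio, SD, n = 4 each). The 13 other called genes and all 27 genes not called were higher in wit mutants without overlap. VGlut had the lowest log2 fold change of the 7 motor neuron markers, of which 5 did not pass the test. Ratios to the other motor neuron markers were not computed.

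**Figure D5:**
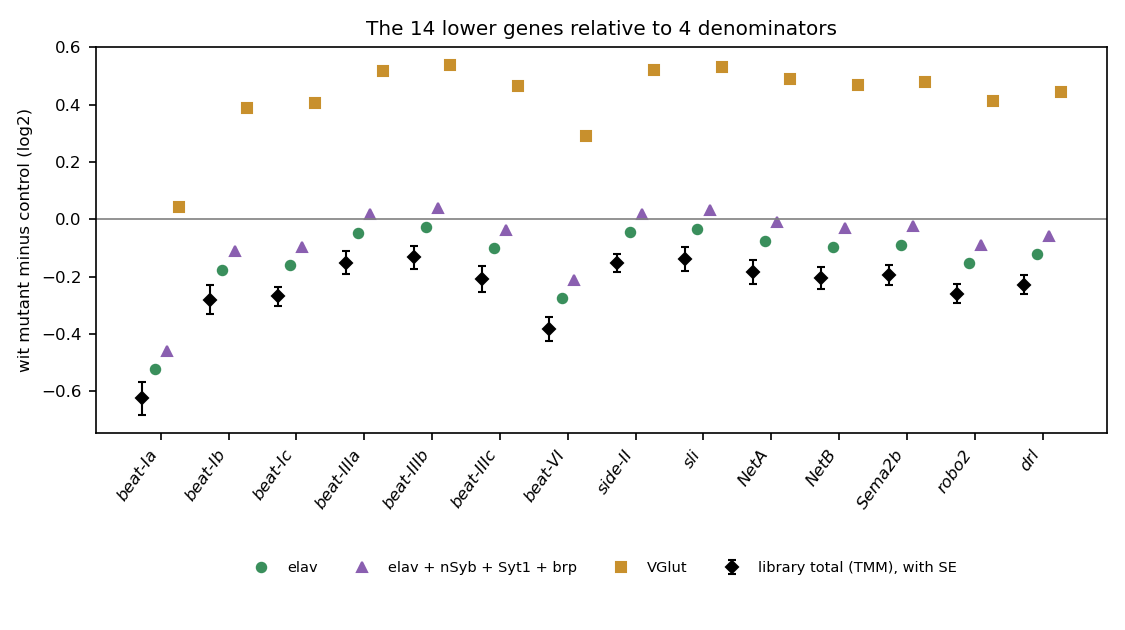
Difference between wit mutants and controls (log2) for the 14 lower genes, relative to the library total (diamonds, with SE) and relative to elav, to 4 summed neuron markers and to VGlut in the same library. Beat-Ia and beat-VI stay below 0 relative to elav and to the neuron markers, and relative to VGlut beat-Ia lies at 0.04. VGlut itself was lower in wit mutants, while 5 of the 7 motor neuron markers did not pass the test.

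Markers of other tissues were counted in the same way. Muscle markers summed to 2.58 to 11.6 CPM in wit mutants and 2.86 to 7.19 CPM in controls, and none of the 3 tested passed, adjusted or at an unadjusted p under 0.05. Of 6 hemocyte markers the collagen genes vkg (-1.07) and Col4a1 (-0.69) fell, and NimC1, He and srp were under 1 CPM on average in both genotypes. Of 5 genes of imaginal discs ptc (-0.24) and sd (-0.11) fell and vg rose (0.18), of 5 fat body genes apolpp fell (-0.34), and of 3 tracheal genes Gasp rose (0.59). Of 5 brain lobe genes bi (-0.28) and so (-1.07) fell, and so averaged 1.07 ± 0.425 CPM in wit mutants and 2.27 ± 0.508 CPM in controls (SD, n = 4 each). Brain lobes had been removed at dissection. Col4a1, so, sd, vg, Gasp and the glial genes Eaat1, Gs2 and Gat lost their calls without mutant library 2, control library 2 or control library 3, and some of them also without mutant library 3 or 4 or control library 1 or 4 (adjusted p 0.0508 to 0.138). The part of these cells and tissues in the guidance gene differences was not tested.

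Genes that act beside these cues and receptors were counted over 2 whole lists of such genes. Of 24 measured signal transducers 1 was higher and 1 lower, where 6.12% of all genes tested were higher and 8.66% lower. The profilin gene chic rose (log2 fold change 0.30, SE 0.06, adjusted p = 0.00803), while Gyc76C, a guanylyl cyclase that acts with Plexin A, fell (log2 fold change -0.19, SE 0.06, adjusted p = 0.0433). The call of Gyc76C was lost without mutant library 2 or 3 or any control library (adjusted p 0.0590 to 0.128), and with DESeq2 and without the count filter. The actin regulator genes ena, Abl and trio had log2 fold changes of 0.06, 0.04 and -0.04, and the list's median was 0.04. Without mutant library 1, 5 transducers were higher and 2 lower, where 11.4% of all genes tested were higher and 12.1% lower.

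Of 24 measured genes for other guidance receptors and proteoglycans, 6 were lower and 0 higher, with a median of -0.05. Over all genes tested, 8.66% were lower and 6.12% higher. At an unadjusted edgeR p under 0.05, where no share over all genes was taken, these were 7 and 1. DESeq2 and limma-voom called 0 higher. Without mutant library 1, 6 were lower and 1 was higher, where 12.1% of all genes tested were lower and 11.4% higher. The heparan sulfate proteoglycan gene Sdc, which encodes the Slit co-receptor Syndecan, was at 434, 435, 442 and 407 CPM in wit mutants and at 507, 526, 495 and 491 CPM in controls (log2 fold change -0.23, SE 0.04, adjusted p = 0.0021). The leucine-rich repeat receptor gene caps (-0.19), the drl paralog Drl-2 (-0.17), tutl (-0.16), the glypican gene dally (-0.16) and Dscam4 (-0.15) also fell. Tutl lost its call without control library 3 (adjusted p = 0.0624), and dally without control library 2 (adjusted p = 0.0572). Dscam4 lost its call without mutant library 2, 3 or 4 or control library 2, 3 or 4 (adjusted p 0.0512 to 0.0910). The receptor tyrosine phosphatase genes Lar, Ptp69D, Ptp10D and Ptp99A had -0.06, -0.05, -0.09 and -0.01. The drl paralog dnt was at 30.2 ± 1.65 CPM in wit mutants and 27.8 ± 0.235 CPM in controls (SD, n = 4 each), without passing the test (log2 fold change 0.12, SE 0.04, adjusted p = 0.0993).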

How the data were processed

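Stranded mRNA libraries of pooled ventral nerve cords were read as 42 bp pairs, per the labels' protocols. The authors deposited 1 table of estimated counts for each library. The submitters' processing notes name kallisto 0.43.0 and DESeq2 as tools and BDGP6 as the build. The sources used here do not give the step from transcripts to genes. As 31.4% of values were not whole, all were rounded. Symbols came from a table of gene identifiers, and coordinates and transcript lengths from Ensembl release 115 (BDGP6). Genes were filtered with filterByExpr (minimum count 10), scaled by TMM and tested with edgeR 4.0.16 (quasi-likelihood, robust, no covariate) in R 4.3.3, over all 9176 genes. DESeq2 1.42.0 and limma 3.58.1 served as alternatives. SE came from the F statistic. On simulated data with 200 of 9159 genes changed, 64% of 1.25-fold changes were called, and 7 of 166 calls were false. Changes under 1.25-fold, as in all the lower genes but beat-Ia and beat-VI, were not simulated. P-values measure the spread between libraries labelled as biological replicates. The 41 genes and the lists were chosen with earlier results of these data known. Every one of the 41 genes is accounted for, and those called are given by library. Their binding partners are given by library too, except fra, unc-5 and PlexB. Pairing by replicate number was checked and is given with the alternatives. Figures were drawn with matplotlib 3.10.9.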

Additional observations from a re-analysis of the deposited data

Results flagged for a closer look

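A library stood apart from the other 3 of its genotype, by Dixon's test at the 95% level, in 5 of the 82 groups of 4 values, where chance gives about 1 in 20. NetA was at 32.7 CPM in wit mutant library 3, against 34.4 to 34.6 CPM in the other mutants. Wnt5 was at 96.8 CPM in wit mutant library 3, against 103 to 104 CPM in the other mutants. Beat-VI was at 192 CPM in control library 1, against 176 to 179 CPM in the other controls. Beat-Ib was at 40.4 CPM in control library 1, against 43.7 to 44.3 CPM in the other controls. Beat-Va was at 64.2 CPM in control library 2, against 58.2 to 58.9 CPM in the other controls. The calls of NetA, beat-VI and beat-Ib held without these libraries.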

How the results depend on the processing

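Of the 14 lower genes 11 kept their call in all 14 alternatives, and beat-IIIa, beat-IIIb and sli lost it in some. Of the 27 others 19 were called in none. The count of lower genes was 16 with DESeq2, 17 with limma-voom, 14 with DESeq2's size factors, 15 with a minimum count of 50 and 12 without the count filter, and no gene was higher in these. Over all genes tested, 9.85% were lower with DESeq2, 12.2% with limma-voom and 8.82% with DESeq2's size factors. This share was 9.29% with a minimum count of 50 and 5.65% without the count filter. Family medians stayed within the spread between libraries. Lower Side genes numbered 2 with DESeq2, limma-voom and a minimum count of 50. Transducers numbered 2 lower and 2 higher with limma-voom and 0 lower without the count filter. Over all genes, limma-voom called 989 higher. Same-numbered libraries did not deviate together (correlations -0.32 to 0.04), which gave no sign that the numbers pair the samples. With the number as a replicate block, 12 of the 41 genes were lower and 0 higher, 0 transducers were lower, and 553 genes were lower and 301 higher over all. With sign flips over same-numbered pairs, whose smallest p is 0.125, 10 of 20 ratios went the same way in all 4.

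Leaving out each library gave 11 to 15 lower and 0 to 3 higher genes of the 41. By family these were 5 to 7 lower and 0 to 1 higher Beat genes, 1 to 3 lower and 0 to 1 higher Side genes, 3 to 4 lower cues, and 2 lower and 0 to 1 higher receptors. Transducers ran from 0 to 2 lower and 1 to 5 higher, and other receptors from 4 to 7 lower and 0 to 1 higher. Over all genes, 524 to 1124 were lower and 304 to 1060 higher, with both highest counts without wit mutant library 1. Ratios without overlap numbered 6 to 10. Relative to the summed neuron markers, the direction turned for beat-IIIa (0.017), beat-IIIb (0.039), side-II (0.018) and sli (0.031). Depth was not varied. The 41 genes had at least 639 counts in every library, and their SEs (log2) ran from 0.03 to 0.07.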
